A study of Rattus norvegicus with 6 samples.

Results

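Short interfering RNA (siRNA) against HMGA2 was compared with a control siRNA in ROSEA25 cells, on 3 arrays of rat gene probes. All 311 features of the array were taken as members, 293 named genes and 18 unnamed clones, out of 311 in all. Of the 6 arrays in the series, 2 carry ROSEA25 cells given siRNA against HMGA2 (siHMGA2) and 1 carries ROSEA25 cells given siRNA against EGFP (siEGFP), the gene of a jellyfish fluorescent protein. The other 3 arrays carry ROSE199 cells stably holding an empty vector or HMGA2 and kept in 10 µg/ml blasticidin, an agent the ROSEA25 labels do not name. Of these only the 2 HMGA2 arrays bear on the comparison, through the dye effect and the pooled spread. The empty vector array is alone in its group and adds nothing to either. On every array RNA of untreated ROSE199 cells, a line from rat ovarian surface epithelium, was in the other dye, and each value is a log2 ratio of sample over ROSE199.

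ROSEA25 was taken as a RAS-transformed derivative of ROSE199, because the protocol for these samples speaks of ROSE-RAS cells. Both groups received 0.2 µM siRNA in 2 doses 24 h apart with a lipid reagent, grew in 10% serum and were taken 48 h after the first dose. Both are the same cell line, so a difference applies to 1 line. Cells given reagent only or a scrambled duplex are named in the protocol and were not analysed here. The siEGFP array and siHMGA2 replicate 1 have the sample in Cy5, and siHMGA2 replicate 2 has it in Cy3. Since no label gives separate cultures, the 2 siHMGA2 arrays were counted as a single RNA labelled in both dye orders. There is therefore 1 RNA sample per group, no difference has a replicate check, and no p-value is given. A lower ratio cannot be told apart between fewer cells that express a gene and less RNA per cell.

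HMGA2 is a small chromatin protein whose AT-hook motifs bind the minor groove of A/T-rich DNA and alter how other factors assemble there. It is abundant in the embryo, low in most adult tissues and found again in many tumours, those of the ovary included. RAS oncogenes signal through the MAP kinase cascade, which turns on growth factor ligands, AP-1 factors and the phosphatases that later switch the kinases off. Transformation of epithelial cells by RAS commonly lowers cell adhesion, matrix and contractile genes. The comparison asks which of the genes on the array differ when HMGA2 is reduced in the transformed cells.

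A fitted difference is siHMGA2 minus siEGFP after 1 dye term common to all arrays, with a pooled standard error of 0.22 that covers labelling and hybridization only. To pass, a feature needed a fitted difference at least 1 in size and above 2 standard errors, and siHMGA2 replicate 1 had to lie on that side of siEGFP. By this rule 27 of 311 features were higher with siHMGA2 (8.68%) and 7 were lower (2.25%). Under a stricter rule each siHMGA2 array alone had to lie at least 1 from siEGFP on the same side. There 7 features were higher (2.25%) and 4 were lower (1.29%). In all, 230 of 311 features (74%) had a fitted difference under 0.5 in size, and the median over all features was 0.03.

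The 2 siHMGA2 arrays differed from each other about as much as siHMGA2 replicate 2 differed from the control. The root mean square difference over 311 features was 0.68 between siEGFP and siHMGA2 replicate 1, 0.52 between siEGFP and replicate 2, and 0.54 between the 2 siHMGA2 arrays. Counted as features at least 1 apart, these pairs gave 42 (13.5%), 18 (5.79%) and 21 (6.75%). Ratios on the siEGFP array also spanned a wider range, with an SD over features of 1.34 against 0.93 and 1.14 on siHMGA2 replicates 1 and 2. Median net sample signal was 1145 on the siEGFP array, and 422 and 592 on the siHMGA2 arrays. Of the 27 higher features, 25 had a siEGFP ratio below 0, and all 7 lower features had one above 0, against 155 and 156 of all features. These counts share the siEGFP array with the difference itself. When the arrays were scaled to 1 spread, 7 features were higher and 2 lower. The names of the scanned images also give the siEGFP array another code than the one both siHMGA2 arrays share, its meaning is not stated, and code and group cannot be told apart.

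**Figure D1:**
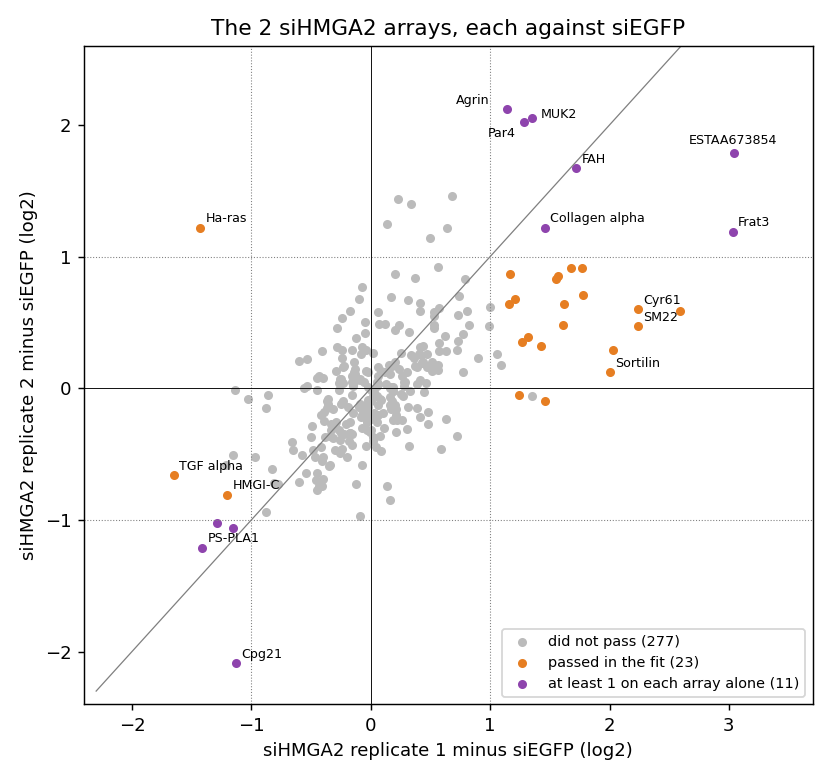
Each point is 1 of 311 features, with its log2 ratio on siHMGA2 replicate 1 minus siEGFP on the horizontal axis and that of replicate 2 minus siEGFP on the vertical axis; dotted lines mark differences of 1 and the grey diagonal marks equal values. Purple points (11) lie at least 1 from siEGFP on each array alone, orange points (23) passed in the fit only, and most orange points lie right of the diagonal, where replicate 1 is farther from the control than replicate 2.

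HMGI-C, as the array names HMGA2, had log2 ratios of 2.40 with siEGFP, 1.20 on siHMGA2 replicate 1 and 1.59 on replicate 2. Both siHMGA2 arrays were below the control, and both were still above ROSE199. The fitted difference was -1.01, a level 2.01-fold lower, with single-array differences of -1.20 and -0.81. The 4 spots of each array had SDs of 0.03, 0.25 and 0.23, so the spots of siEGFP and siHMGA2 did not overlap. The difference lay close to the size limit. It was -0.44 without siHMGA2 replicate 1 and -0.08 with the arrays scaled to 1 spread. The reduction of the targeted gene therefore depends on the setting.

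K-ras marks ROSEA25 as the transformed line. Its log2 ratios were 4.25 with siEGFP and 4.82 and 4.60 with siHMGA2, the highest of the 4 genes plotted by spot. All 3 arrays were far above ROSE199, and the fitted difference of 0.47 did not pass. Markers of ovarian surface epithelium were above blank in the sample channel of all 3 arrays. With siEGFP the log2 ratios were -1.36 for WT1, -0.75 for DOC-2, -3.29 for P-cadherin, -2.27 for E-cadherin and -1.91 for Megakaryocyte potenciating factor, the precursor of mesothelin. All 5 markers were thus measured and all 5 lay below ROSE199.

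**Figure D2:**
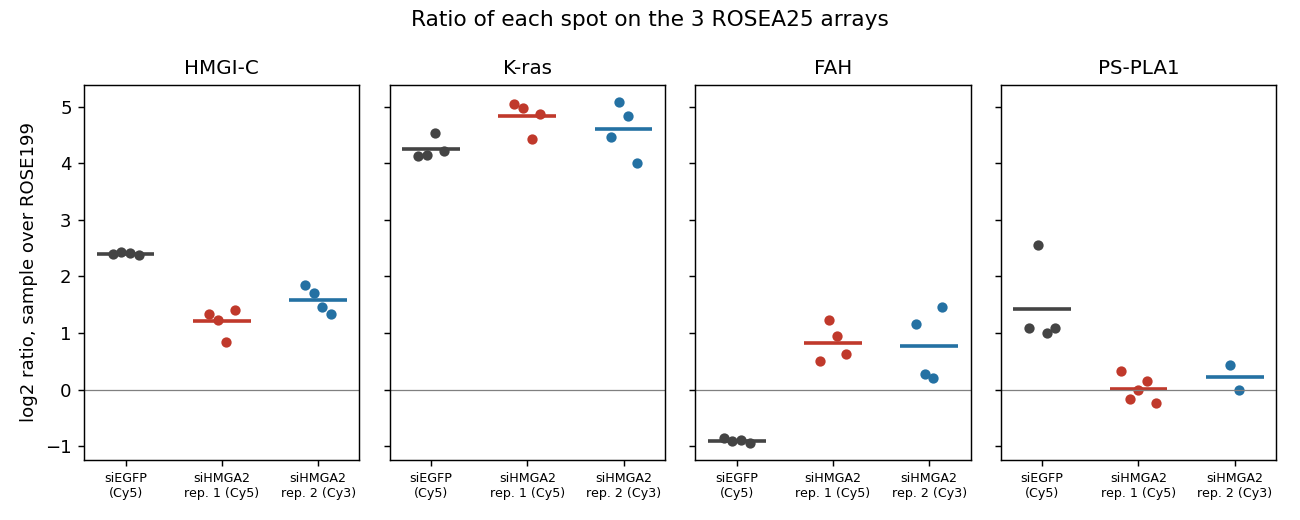
Log2 ratios of sample over ROSE199 for each spot of HMGI-C, K-ras, FAH and PS-PLA1 on the siEGFP array, siHMGA2 replicate 1 and siHMGA2 replicate 2, with lines at the means. HMGI-C and PS-PLA1 spots lie lower with siHMGA2 and FAH spots lie higher on both siHMGA2 arrays, while K-ras stays between 4 and 5.1 on all 3.

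Ha-ras was the feature on which the siHMGA2 arrays disagreed most. Its log2 ratios were 0.07 with siEGFP, -1.36 on siHMGA2 replicate 1 and 1.28 on replicate 2. The 2 siHMGA2 arrays lay on opposite sides of the control, 2.64 apart. The HMGA2-transfected ROSE199 cells gave -1.34 in Cy5 and 1.25 in Cy3, a gap in the same dye order. The fitted difference was -1.41, close to the -1.43 between the Cy5 arrays, but it was -0.10 with no dye term.

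Of the 11 features that lay at least 1 from siEGFP on each array alone, 3 matched a single RefSeq rat gene with a promoter entry. Their promoters are shown because HMGA2 binds A/T-rich DNA and these genes had the differences seen on both arrays. Each runs 5′ to 3′ in build GRCr8 and ends shortly after the annotated gene start, and capitals mark runs of at least 6 bases of A and T only. The array's FAH is the gene Fah at chr1:147980556-147980855 on the minus strand. Cpg21 is a synonym of Dusp5 at chr1:262543524-262543823 on the plus strand. PS-PLA1 is a synonym of Pla1a at chr11:75825376-75825675 on the plus strand.
Fah: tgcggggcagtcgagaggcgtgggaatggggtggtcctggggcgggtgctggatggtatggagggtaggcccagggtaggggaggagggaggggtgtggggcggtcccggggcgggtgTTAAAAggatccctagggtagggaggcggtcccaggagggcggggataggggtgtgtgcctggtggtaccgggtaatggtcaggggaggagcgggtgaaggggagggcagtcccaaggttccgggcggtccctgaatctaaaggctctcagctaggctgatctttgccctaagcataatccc
Dusp5: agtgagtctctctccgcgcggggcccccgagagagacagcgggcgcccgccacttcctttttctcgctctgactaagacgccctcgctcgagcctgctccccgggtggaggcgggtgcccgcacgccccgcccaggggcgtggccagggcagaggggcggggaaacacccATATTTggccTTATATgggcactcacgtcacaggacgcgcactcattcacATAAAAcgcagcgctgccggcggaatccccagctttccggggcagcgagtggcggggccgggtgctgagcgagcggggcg
Pla1a: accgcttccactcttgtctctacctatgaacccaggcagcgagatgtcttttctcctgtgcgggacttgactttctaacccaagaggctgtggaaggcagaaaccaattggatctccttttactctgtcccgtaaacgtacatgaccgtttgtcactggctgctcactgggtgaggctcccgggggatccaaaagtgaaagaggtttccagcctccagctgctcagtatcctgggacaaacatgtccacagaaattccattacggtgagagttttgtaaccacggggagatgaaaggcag
Fah holds 1 such run, Dusp5 holds 3 and Pla1a holds 0, while 71.0% of the 27457 RefSeq promoters of 300 bases hold at least 1. The share of A and T was 34.7% in Fah, 31.0% in Dusp5 and 49.0% in Pla1a, against a median of 47.7% over all promoters. Both strands were also searched for the AP-1 motif TGANTCA, held by 7.4% of all promoters, and for the CArG box, the serum response element core, held by 1.64%. None of the 3 held the AP-1 motif, and only Dusp5 held CArG boxes, of which it had 2. Those 2 boxes overlap the first 2 A/T runs in its sequence. A match is a description of letters, and HMGA2 binding was not measured.

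FAH, the enzyme of the last step of tyrosine breakdown, had the smallest gap between the siHMGA2 arrays among the features that passed. Its log2 ratios were -0.90 with siEGFP, 0.82 on siHMGA2 replicate 1 and 0.77 on replicate 2. It lay below ROSE199 in the control and above it on both siHMGA2 arrays, which were 0.05 apart. Its spots had SDs of 0.32 and 0.63 on siHMGA2 replicates 1 and 2, far more than this gap. The fitted difference was 1.70, or 3.24-fold higher. FAH is the gene whose promoter has the single A/T run above.

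Agrin, Par4 and MUK2 were higher on both arrays and more so on replicate 2. Agrin, a heparan sulphate proteoglycan of basement membranes, had log2 ratios of -2.60 with siEGFP, -1.46 on replicate 1 and -0.47 on replicate 2, a fitted difference of 1.31. Par4, a protein that promotes apoptosis, had -3.51, -2.23 and -1.49 on the same arrays, a fitted difference of 1.46. Its 4 spots on replicate 2 had an SD of 1.08, which is more than its gap of 0.74 between the siHMGA2 arrays. MUK2 had log2 ratios of -2.67, -1.32 and -0.62, a fitted difference of 1.54. For all 3 genes the control was lowest and replicate 2 highest, and all 3 stayed below ROSE199 on every array.

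Collagen alpha, a chain of the fibrillar matrix, had log2 ratios of -4.68 with siEGFP, -3.22 on siHMGA2 replicate 1 and -3.47 on replicate 2. Both siHMGA2 arrays were above the control and far below ROSE199, and the fitted difference was 1.36, with a spot SD of 0.85 on replicate 2. Scaling the arrays to 1 spread turned its direction, to -0.38. Frat3 had log2 ratios of -3.44, -0.41 and -2.25. Its siEGFP signal was not above blank, so the fitted difference of 2.61 is not a fold, and the bound was at least 1.03-fold higher. The unnamed clone ESTAA673854 had the highest fitted difference of all features, 2.75, from log2 ratios of -4.75, -1.71 and -2.95. Its spots had SDs of 0.93 and 0.90 on the siHMGA2 arrays against 0.08 on the control.

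Among the features lower on both arrays were 2 enzymes of lipid signalling. PS-PLA1, a phospholipase that releases lysophosphatidylserine, had log2 ratios of 1.43 with siEGFP, 0.02 on siHMGA2 replicate 1 and 0.22 on replicate 2. Both siHMGA2 arrays were below the control, and the fitted difference was -1.59. It was -0.64 with no background correction and did not pass there. No fold is given, because the ROSE199 channel of replicate 2 was not above blank. Only 2 spots remained on replicate 2, and 1 of the 4 siEGFP spots stood above the others, as the SD of 0.75 shows. Cyclooxygenase 1, which makes the prostaglandin precursor, had log2 ratios of 2.39, 1.10 and 1.37, a fitted difference of -1.30. Cox2, the inducible enzyme of the same step, had a fitted difference of 0.43 and did not pass. The list of prostaglandin and phospholipid enzymes thus had 2 of 3 members lower and 0 higher, against 2.25% and 8.68% of all features. Its median was -1.30. H-rev107, a phospholipase counted in another list, was higher, with a fitted difference of 1.40. Of the 3 listed members only Cox2 was above blank in both channels on all 3 arrays.

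Cpg21, a phosphatase that acts on nuclear ERK and is a product of the MAP kinase pathway itself, had log2 ratios of 2.84 with siEGFP, 1.72 on siHMGA2 replicate 1 and 0.75 on replicate 2. Both siHMGA2 arrays were lower, replicate 2 more so, and the fitted difference was -1.24, with a spot SD of 0.86 on replicate 2. On replicate 2 the ROSE199 channel was not above blank for Cpg21, Cyclooxygenase 1 and PS-PLA1, as for 35 features on that array. SFB1 posphatase also met the rule, with log2 ratios of 0.75, -0.39 and -0.31, but it was above blank in neither group and no fold is given. Over the 5 MAP kinase phosphatases on the array 0 were higher and 1 lower, against 8.68% and 2.25% of all features. Mkp1, Mkp2, Mkp3 and Mkp4 had fitted differences of 0.46, 0.12, 0.40 and -0.43, so the lower value was that of Cpg21 and the median was 0.12.

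**Figure D3:**
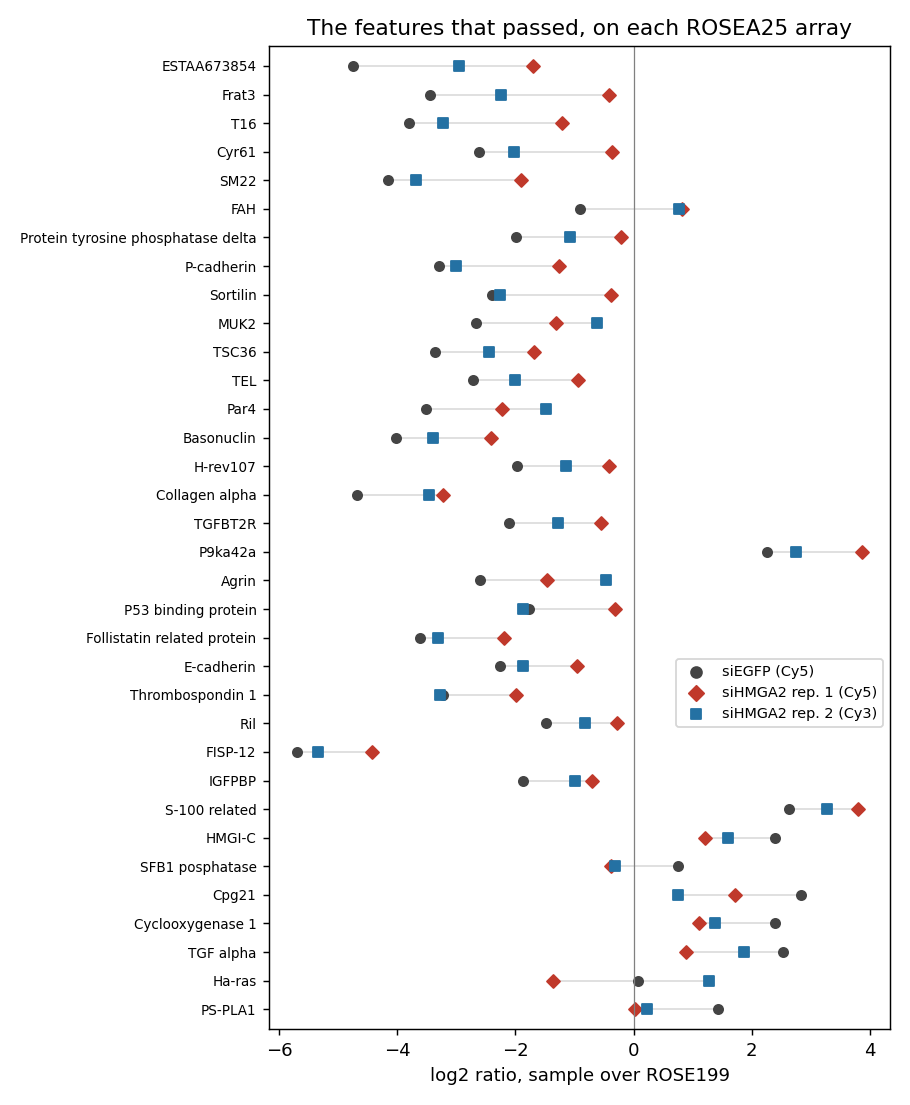
Log2 ratios of sample over ROSE199 for the 34 features that passed, in order of fitted difference, on the siEGFP array (circles), siHMGA2 replicate 1 (diamonds) and siHMGA2 replicate 2 (squares). Replicate 1 lay farther above siEGFP than replicate 2 in 24 of the 27 higher features, and the control lies between the siHMGA2 arrays for Ha-ras and, by 0.10 or less on the replicate 2 side, for P53 binding protein and Thrombospondin 1.

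In each of the other 20 higher features siHMGA2 replicate 1 lay farther from siEGFP than replicate 2. Over the 27 higher features the median difference from siEGFP was 1.57 on replicate 1 and 0.68 on replicate 2, and in 9 of them the difference on replicate 2 was under 0.5. On both arrays the difference was positive in 25 of 27, and over all 311 features 214 had the same sign on both arrays. The signs share the siEGFP array. A passing feature also had to lie on its side of siEGFP on replicate 1, and its fitted difference includes replicate 2. The agreement of signs among passing features is thus largely set by the rule and is not a replicate check. Of the 7 lower features 6 were negative on both arrays, with medians of -1.29 and -1.02.

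Secreted regulators had the most members that passed among the lists, 5 of 8 higher and 0 lower, with a median of 1.09. The shares over all features were 8.68% higher and 2.25% lower. Cyr61, a matricellular protein of the CCN family, had log2 ratios of -2.62 with siEGFP, -0.37 on siHMGA2 replicate 1 and -2.02 on replicate 2, a fitted difference of 1.84. FISP-12, the mouse name of connective tissue growth factor and also of the CCN family, had -5.69, -4.42 and -5.34, a fitted difference of 1.09. In both genes replicate 1 was the highest array, and replicate 2 was above the control by 0.60 and 0.35. TSC36, which is a follistatin-like protein, had log2 ratios of -3.36, -1.68 and -2.45, a fitted difference of 1.51. Follistatin related protein had -3.62, -2.19 and -3.31, a fitted difference of 1.17. The last 2 names are used for the same kind of protein, and whether their probes share a gene was not tested. IGFPBP, an insulin-like growth factor binding protein, had log2 ratios of -1.87, -0.70 and -1.0. Its siEGFP signal was not above blank, and the bound was at least 1.81-fold higher. TGF beta (0.26) and IGF-2 (-0.03) did not pass. Neither did PDGF receptor (-0.33, not above blank with siEGFP), a membrane receptor that the list counts although it is not secreted.

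The 8 matrix features had a median of 0.42, which was -0.15 with the arrays scaled to 1 spread. Of them 3 were higher and 0 lower, against 8.68% and 2.25% of all features. Beside Collagen alpha these were T16 and Thrombospondin 1. T16, a RefSeq synonym of the fibulin gene Efemp1, had log2 ratios of -3.81, -1.22 and -3.22. It was not above blank with siEGFP, so the fitted difference of 2.21 is not a fold, and the bound was at least 1.56-fold higher. Thrombospondin 1, a matrix glycoprotein that limits vessel growth, had -3.23, -1.99 and -3.28. Its replicate 2 value lay at the control, -0.05 from it, and the fitted difference of 1.13 came from replicate 1. Lox (0.66), LOXRP (-0.33), Osteonectin (-0.20) and Fibrillin-1 (0.18, not above blank with siEGFP) did not pass. Fibronectin (-0.06) did not pass either, so the matrix features differed among themselves.

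Epithelial features had 3 of 6 members higher and 0 lower, against 8.68% and 2.25% of all features, with a median of 0.93. P-cadherin, a cell-cell adhesion protein, had log2 ratios of -3.29 with siEGFP, -1.26 on siHMGA2 replicate 1 and -3.0 on replicate 2, a fitted difference of 1.60. E-cadherin, the main adhesion protein of epithelia, had -2.27, -0.96 and -1.88, a fitted difference of 1.13. Basonuclin, a zinc finger protein of epithelial cells, had -4.03, -2.41 and -3.39, a fitted difference of 1.43, with a spot SD of 1.06 on the control array. All 3 were higher on both siHMGA2 arrays, but on replicate 2 by 0.29, 0.39 and 0.64 only. DOC-2 (0.73), WT1 (0.71) and Megakaryocyte potenciating factor (-0.22) did not pass.

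Some contractile and mesenchymal features were higher with siHMGA2 and others did not pass. SM22, an actin-binding protein of smooth muscle, had log2 ratios of -4.16, -1.91 and -3.69, a fitted difference of 1.75. Ril, a LIM protein of the actin cytoskeleton, had -1.49, -0.28 and -0.82, a fitted difference of 1.11. P9ka42a, a RefSeq synonym of the S100a4 gene that marks mesenchymal and motile cells, had 2.26, 3.87 and 2.74, a fitted difference of 1.32. It and S-100 related (2.63, 3.79 and 3.27, fitted difference 1.03), the 2 S100 features (median 1.17), were the only higher features that lay above ROSE199 in the control. In all, 3 of 7 actin and contractile features were higher and 0 lower (median 0.57), against 8.68% and 2.25% of all features. FHL2 (-0.67), Ahnak (0.57), TPM2 (-0.53) and Cav-1 (-0.08) did not pass. Left out of the list were Alpha actinin (-0.29), Arp3 (-0.09), Caldesmon (-0.04) and Beta actin (0.13). None of these passed, and the median holds for the chosen features only. Of 4 mesenchymal features 2 were higher and 0 lower (median 0.90), P9ka42a and TGFBT2R. TGFBT2R, the type II receptor of TGF beta, had log2 ratios of -2.11, -0.56 and -1.28, a fitted difference of 1.36. Thy-1 (0.48) and PDGF receptor (-0.33) did not pass, and neither was above blank with siEGFP.

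The 8 tumour suppressor features had a median of 0.40. Of them 3 were higher and 0 lower, against 8.68% and 2.25% of all features. These were TSC36, Par4 and H-rev107, a phospholipase that restrains growth of RAS-transformed cells. H-rev107 had log2 ratios of -1.98 with siEGFP, -0.41 on siHMGA2 replicate 1 and -1.14 on replicate 2, a fitted difference of 1.40. Both siHMGA2 arrays were above the control and below ROSE199. P27 kip (0.44), P16 (ink4a) (0.36), LOT1 (0.34) and P53 (0.23) did not pass. The list left out other tumour suppressor features of the array, such as RB (-0.73), BARD1 (-0.51), NF1 (-0.24), NF2 (0.23) and TSG101 (0.16). None of these passed, and the median holds for the 8 chosen features only.

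The remaining higher features had different roles. TEL, an ETS family repressor, had log2 ratios of -2.72, -0.94 and -2.01, a fitted difference of 1.5. It was the only one of 6 ETS factors to pass, and Sap1 (-0.28), ER81 (-0.21), Ets1 (-0.13), Elk1 (0.09) and Ets-2 (0.08) did not pass (median of the 6, -0.02). Protein tyrosine phosphatase delta, a receptor phosphatase, had -1.99, -0.22 and -1.08, a fitted difference of 1.61, with a spot SD of 0.99 on the control array. Sortilin, a receptor that sorts proteins to lysosomes, had -2.39, -0.38 and -2.26, a fitted difference of 1.55. Its 2 siHMGA2 arrays were 1.88 apart, and replicate 2 was 0.12 above the control. P53 binding protein had -1.77, -0.32 and -1.88, with 1 spot on replicate 2. It was not above blank with siEGFP, and no fold is given for its fitted difference of 1.18.

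The largest gaps between the siHMGA2 arrays were 2.64 for Ha-ras, 2.00 for T16, 1.88 for Sortilin, 1.84 for Frat3 and 1.77 for SM22. Except for Ha-ras, replicate 1 was the higher array in each. Over all 311 features the median gap was 0.27, and over the 34 that passed it was 0.94. In all 21 features had a gap of at least 1, and 13 of them passed.

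RAS and MAP kinase response genes had a median of -0.22, which was 0.11 with the arrays scaled to 1 spread. Of the 17 members 2 were lower and 0 higher, against 2.25% and 8.68% of all features. Beside Cpg21 this was TGF alpha, a ligand of the EGF receptor, with log2 ratios of 2.53 with siEGFP, 0.88 on siHMGA2 replicate 1 and 1.87 on replicate 2. Both siHMGA2 arrays were below the control, and the fitted difference was -1.37. CD44, the hyaluronan receptor, had 2.63, 1.48 and 2.11, and its fitted difference of -0.99 lay just under the size limit. Fra-1 (-0.69), CyclinD1 (-0.51) and HB-EFG (-0.49) did not pass, and JunD (0.47) and Mkp1 (0.46) had values of the opposite sign. All 6 AP-1 and Egr-1 features stayed under the limit (median 0.12), from Fra-1 to Fra2 (0.55). Of 12 growth factors TGF alpha was the only one to pass (0 higher, 1 lower, median -0.05), with CSF-1 at -0.40 and VEGF at -0.32.

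**Figure D4:**
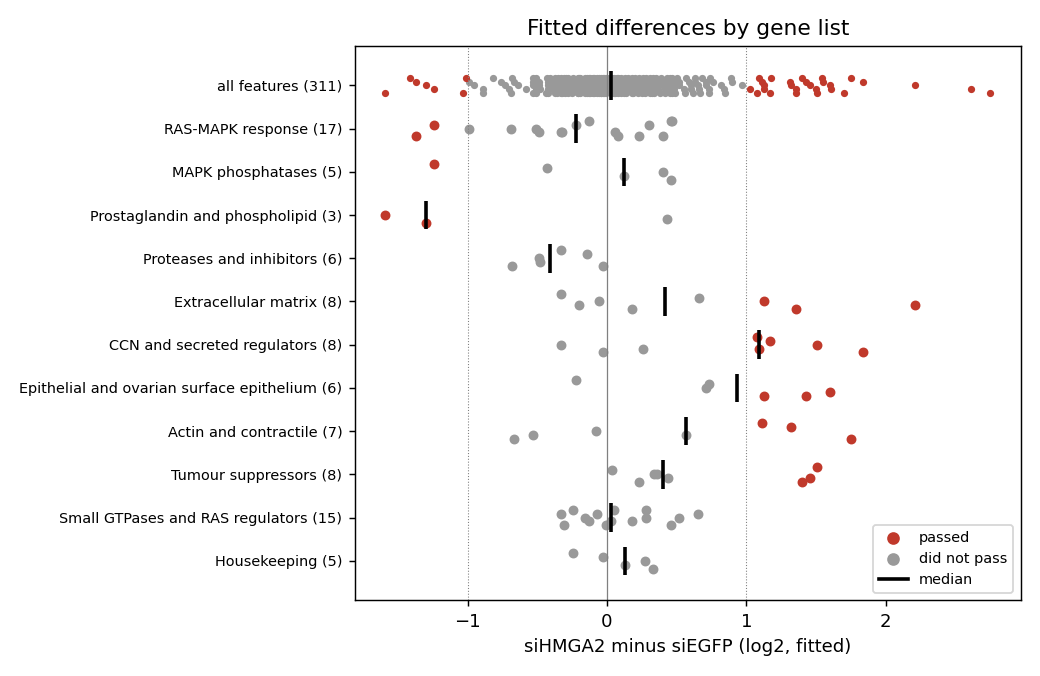
Fitted differences, siHMGA2 minus siEGFP on the log2 scale, for all 311 features and the members of the gene lists plotted. Passing features are in red, others in grey, with a bar at each median, and dotted lines mark the size limit of 1. Secreted regulators (median 1.09) and epithelial features (0.93) lie to the right of all features (0.03), and the 3 prostaglandin and phospholipid enzymes have 2 members left of -1.

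Proteases and their inhibitors did not pass in either direction (0 of 6, median -0.41, and 0.14 with the arrays scaled to 1 spread). The largest difference was that of MMP1, a collagenase, at -0.68, followed by MMP10 (-0.49), MMP-3 (-0.48) and UPA (-0.33). GelatinaseA (0.60, not above blank with siEGFP) and its inhibitor TIMP-2 (-0.15) did not pass either (median 0.23). MMP10 had log2 ratios of 3.76, 3.25 and 3.39, so it stayed far above ROSE199 with siHMGA2.

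Several groups had no member that passed, where 8.68% of all features were higher and 2.25% lower. None of 15 small GTPases and RAS regulators did (median 0.03), with Rnd3-Rho8 (0.65) and Nras-rat (0.52) the highest. None of the 4 Id proteins did, but ID3 (-0.82) and ID4 (0.84) had opposite signs around a median of -0.15. The 4 cell cycle features (median 0.29), the 5 adhesion receptors (median -0.07), the 3 DNA methyltransferases (median -0.16), the 3 muscle regulators (median -0.02) and the 2 interferon and chemokine features (median -0.01) had none. The adhesion list also counts Cx43, a gap junction protein, and EGFR, a growth factor receptor. With siEGFP, 3 of the adhesion receptors, 2 of the methyltransferases, 1 muscle regulator and 2 of the GTPase features were not above blank, so their differences are poorly measured. The 5 housekeeping features, which had a median of 0.13 (-0.16 to 0.30 over the alternatives), ran from -0.24 for S9 to 0.33 for GAPDH. Among HMGI-C and 3 reported HMGA2 targets (median 0.04) only HMGI-C passed, as lower, and P16 (ink4a) (0.36), c-myc (0.30) and JunB (-0.22) did not. Of the stress features Par4 was the only one of 5 to pass (median 0.56), with TRPM-2, which encodes clusterin, at 0.85 and GADD153 at 0.56. Of 4 neuronal features Sortilin alone passed (median 0.90), and of 3 metabolic enzymes FAH alone passed (median 0.20). Without siHMGA2 replicate 1 the medians were 0.25 for neuronal, 0.53 for S100, 0.49 for secreted, 0.48 for epithelial, 0.29 for contractile and 0.60 for mesenchymal features. For metabolic enzymes the median was then -0.12.

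Just under the size limit lay CD44 (-0.99), ETF (0.97), Prkar2b (-0.95) and NAP-22 (0.90), and just past it HMGI-C (-1.01), S-100 related (1.03) and SFB1 posphatase (-1.03). Prkar2b, a regulatory subunit of protein kinase A, had log2 ratios of 2.18 with siEGFP, 0.97 on siHMGA2 replicate 1 and 1.60 on replicate 2. It was lower on both siHMGA2 arrays. In all, 10 features that passed and 11 that did not lay within 1 pooled standard error (0.22) of the limit, so their side of it is not settled. The 10 were the 3 named above, IGFPBP, FISP-12, Ril, Thrombospondin 1, E-cadherin, Follistatin related protein and P53 binding protein.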

How the data were processed

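The spot files hold mean signal and median background intensity per channel, per the file headers. A further table, deposited by the authors, holds log2 ratios. On the 3 ROSEA25 arrays it correlated at 0.841, 0.895 and 0.924 with ratios from the intensities, which gave its direction (sample over ROSE199). Its column medians there were 0.09, -0.10 and 0.20. Its centring and background correction are not stated in the sources used here, so it served as an alternative.

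Of 1760 spots per array, 37 blank spots and spots marked poor (47, 25 and 64 on the siEGFP and 2 siHMGA2 arrays) were left out. Spots of the same name, 325 for beta actin, were averaged into 311 features. Background was corrected by normexp (offset 50) and ratios by loess (span 0.3, 4 iterations), giving weight 0 to blanks and beta actin, in R 4.3.3 with limma 3.58.1. Each labelling used 20 µg of RNA. A least-squares fit per feature over the 6 arrays held a value for each group and a common dye term. The spread (SD 0.169, as a scaled median absolute residual) was pooled over features and comes from the HMGA2 and siHMGA2 arrays. The fit was tested on simulated data. A feature was above blank when its net signal exceeded the blank mean by 3 SD. A bound sets the brighter group against the dimmer one raised to the lowest signal above blank, per channel after loess and Aquantile, and is open to dye bias. Saturated features numbered 0 on the 3 ROSEA25 arrays. These arrays were quantified on 1 day. The number of arrays limits the precision.

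The named genes are HMGI-C, K-ras and Ha-ras, every passing feature, every feature past the limit on each siHMGA2 array, the passing and up to 4 further members of each list, the 5 largest gaps between the siHMGA2 arrays and the features from 0.9 to 1. Further examples were chosen after their values were seen. Members and lists were chosen with earlier results of these data known. The lists of phosphatases, AP-1, ETS, Id, GTPase, methyltransferase, muscle, growth factor, gelatinase and S100 features were added after the array's names were seen. Gene names are those of the array's design and can be old. Alternatives, 16 in all, changed the dye term, background, centring, spread, filters, spot averaging, source of ratios and arrays used.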

Additional observations from a re-analysis of the deposited data

How the results depend on the processing

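Against 27 higher and 7 lower features, the fits without 1 array gave 12 to 31 higher and 3 to 11 lower, and HMGI-C from -1.20 to -0.44. The smallest counts and the weakest reduction of HMGI-C came without siHMGA2 replicate 1, where 12 of the 34 features were shared. FAH (1.62), Par4 (2.01), MUK2 (2.10), Agrin (1.84), PS-PLA1 (-2.14), Cpg21 (-1.58) and Cyclooxygenase 1 (-1.35) were among these 12. Cy5 arrays only gave 11 lower. No background correction gave 3 lower, 0 below siEGFP on each array and HMGI-C at -0.77, and plain subtraction gave HMGI-C at -0.98. Median centring gave 16 lower and 11 above siEGFP on each array. Beta actin centring gave 12 lower, 21 above and 1 below on each array, and HMGI-C at -0.96. Housekeeping centring, which moved the median of all features by -0.23, gave 17 higher, 19 lower, 13 above and 1 below on each array. Arrays scaled to 1 spread gave 7 higher, 2 lower, 1 above and 0 below on each array, HMGI-C at -0.08, and turned FISP-12 (-0.91), Collagen alpha (-0.38) and Follistatin related protein (-0.11); the 7 included K-ras (1.93) and GADD153 (1.20), which had not passed. Features above blank in both channels on all 3 arrays (269) gave 3 lower and 0 below on each array. Cpg21, Cyclooxygenase 1, PS-PLA1 and SFB1 posphatase, the features below siEGFP on each array, did not meet this filter. The median over spots gave 1 below on each array and HMGI-C at -0.97. The deposited log2 ratios, which moved the median by -0.15, gave 38 higher, 27 lower, 22 above and 15 below on each array, with 17 features shared. The share of higher among passing features was 79.4%, and it was 61% with median centring, 47.2% with housekeeping centring, 88.5% with brighter features and 58.5% with the deposited ratios. The causes were not tested. FAH, Frat3 and ESTAA673854 passed under the 15 alternatives that kept all features. Cy5 arrays only and the fits without siHMGA2 replicate 2 or without either HMGA2 array all reduce to siHMGA2 replicate 1 minus siEGFP. These alternatives are the same check and not separate ones, also among the fits without 1 array. They left no residual spread, so the limit of 2 standard errors was not applied in them. Among gene lists the medians of secreted regulators (0.06 to 1.22), epithelial (0.27 to 1.07), mesenchymal (0.38 to 1.34), contractile (0.21 to 0.77), neuronal (0.25 to 1.04), S100 (0.53 to 2.0) and tumour suppressor features (0.14 to 0.61) stayed positive under all 16 alternatives. Each median covers the chosen members of its list only, which were picked with earlier results of these data known. The alternatives reuse the same arrays, so a sign that stays positive is not separate support. No paired analysis was possible because each group holds 1 RNA sample and siEGFP has 1 array.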

Other observations

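The series also holds ROSE199 cells made to carry HMGA2, the opposite manipulation in the untransformed line, with blasticidin in both of its groups. In Cy5 arrays alone, which leaves the comparisons with no array in common, HMGA2 minus empty vector was set beside siHMGA2 minus siEGFP for all 311 features. Pearson's r across features was -0.00772 and Spearman's rho was -0.0322; genes are not independent replicates, and this is a description. With HMGA2, 27 of 311 features (8.68%) lay at least 1 from the empty vector, and with siHMGA2 42 of 311 (13.5%) lay at least 1 from siEGFP. Both lists held 13 of them, 31% of the siHMGA2 list and 48.1% of the HMGA2 list, and 8 had opposite signs while 5 had the same sign. The 8 include HMGI-C, the gene manipulated in both comparisons.

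T16 was -2.47 with HMGA2 and 2.59 with siHMGA2, and Collagen alpha was -1.55 and 1.46. P9ka42a (-1.18 and 1.61), SM22 (-1.17 and 2.24), S-100 related (-1.12 and 1.16) and E-cadherin (-1.03 and 1.32) also had opposite signs. HMGI-C itself was 3.44 and -1.20, and RPT-1r was 1.18 and -1.14. TEL (2.86 and 1.78), IGFPBP (3.19 and 1.17), Peripherin (2.76 and 1.09), Sortilin (1.23 and 2.00) and Ril (1.41 and 1.21) were higher in both. FAH was 0.31 with HMGA2 and 1.72 with siHMGA2. Each value comes from 1 array against 1 array, and the siHMGA2 values are those of replicate 1. On replicate 2 the differences from siEGFP were 0.59 for T16, 1.22 for Collagen alpha, 0.48 for P9ka42a and 0.47 for SM22. They were 0.64 for S-100 related, 0.39 for E-cadherin, -0.81 for HMGI-C and -0.01 for RPT-1r. Those higher in both had 0.71 (TEL), 0.87 (IGFPBP), 0.18 (Peripherin), 0.12 (Sortilin) and 0.68 (Ril).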
